A study of Mus musculus with 7 samples.

Results

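The B cell receptor and lineage genes described here are Cd79a, Cd79b, Blk, Ms4a1, Cd22, Cr2, Fcer2a, Pax5 and Ebf1. They were taken by symbol from the deposited expression table, in which all 9 members were found among 34745 genes. The table covers splenic CD4 T cells of the naive type, which were purified from untreated male C57BL/6 mice of 8 weeks by removing other cells (negative isolation). Of the 7 libraries, 4 came from mice labelled PIK3CD GOF (heterozygous), which carry a gain-of-function form of the delta catalytic subunit of phosphoinositide 3-kinase, and 3 from Wild-type (WT) littermates. The labels name neither the amino acid change nor a promoter or Cre, so which other cells of these mice carry the allele is not given in them.

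B cells recognise antigen through a membrane immunoglobulin that is paired with the signalling chains CD79A and CD79B. Src family kinases such as BLK phosphorylate these chains, CR2 lowers the threshold for activation, and CD22 raises it. Early B factor 1, encoded by Ebf1, and PAX5 switch on and maintain this gene set. Conventional CD4 T cells are not a known site of most of these transcripts, and PI3K delta is known for its part in both B and T cells.

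Libraries held 14945520 to 16293539 counts in GOF and 14497957 to 15015783 in WT, and levels are given as CPM, the count scaled to a common library total with edgeR's TMM factors, unless FPKM is named. Mitochondrial genes took 5.78 to 6.71% of the counts in GOF and 4.33 to 5.12% in WT. Pik3cd itself, the mutated gene, was at 543, 762, 538 and 765 CPM in GOF replicates 1 to 4, against 938, 1511 and 959 CPM in WT replicates 1 to 3 (log2 fold change -0.80 ± 0.20 SE, edgeR adjusted p = 0.0154). Without GOF replicates 1 and 3 its log2 fold change was -0.58 and did not pass (edgeR adjusted p = 0.106). Counts per gene do not show which allele was read. The T cell marker Cd4 was abundant, at 1064 to 1163 CPM in GOF and 698 to 855 CPM in WT. Of all 12668 genes tested, 2130 (16.8%) were higher and 1838 (14.5%) lower in GOF. The split was 2527 higher and 1428 lower when only library totals were used for scaling. In limma, run on log2(FPKM + 1), 2606 genes were higher and 1393 were lower.

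Of the 9 B cell genes 6 rose in GOF, 0 fell and 3 did not pass (edgeR quasi-likelihood, adjusted p under 0.05 over all genes tested), where 16.8% of all tested genes rose. The risers were Cr2, Ebf1, Cd22, Blk, Cd79b and Cd79a, and those that did not pass were Ms4a1, Pax5 and Fcer2a. Their median log2 fold change was 1.53, from 0.21 for Fcer2a to 4.13 for Cr2, beside 0.01 for all tested genes. All 4 GOF libraries lay above all 3 WT libraries for 5 of the 9, Cr2, Ebf1, Cd22, Blk and Ms4a1, and 21.5% of all tested genes did so. The number that rose was 3 without GOF replicate 1, without GOF replicate 3 or without WT replicate 3, and 8 without WT replicate 2. Of all tested genes 13%, 13.3%, 12.8% and 16% rose in these sets, in that order. Without both GOF replicates 1 and 3, in which all 9 genes were highest among GOF mice, 1 gene, Cr2, still rose, beside 8.53% of all tested genes. Cr2, counted among the risers throughout, met the count filter for testing through GOF libraries alone, so its inclusion required a difference. In bulk RNA, a larger number of B cells and more of these transcripts per cell cannot be told apart.

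**Figure D1:**
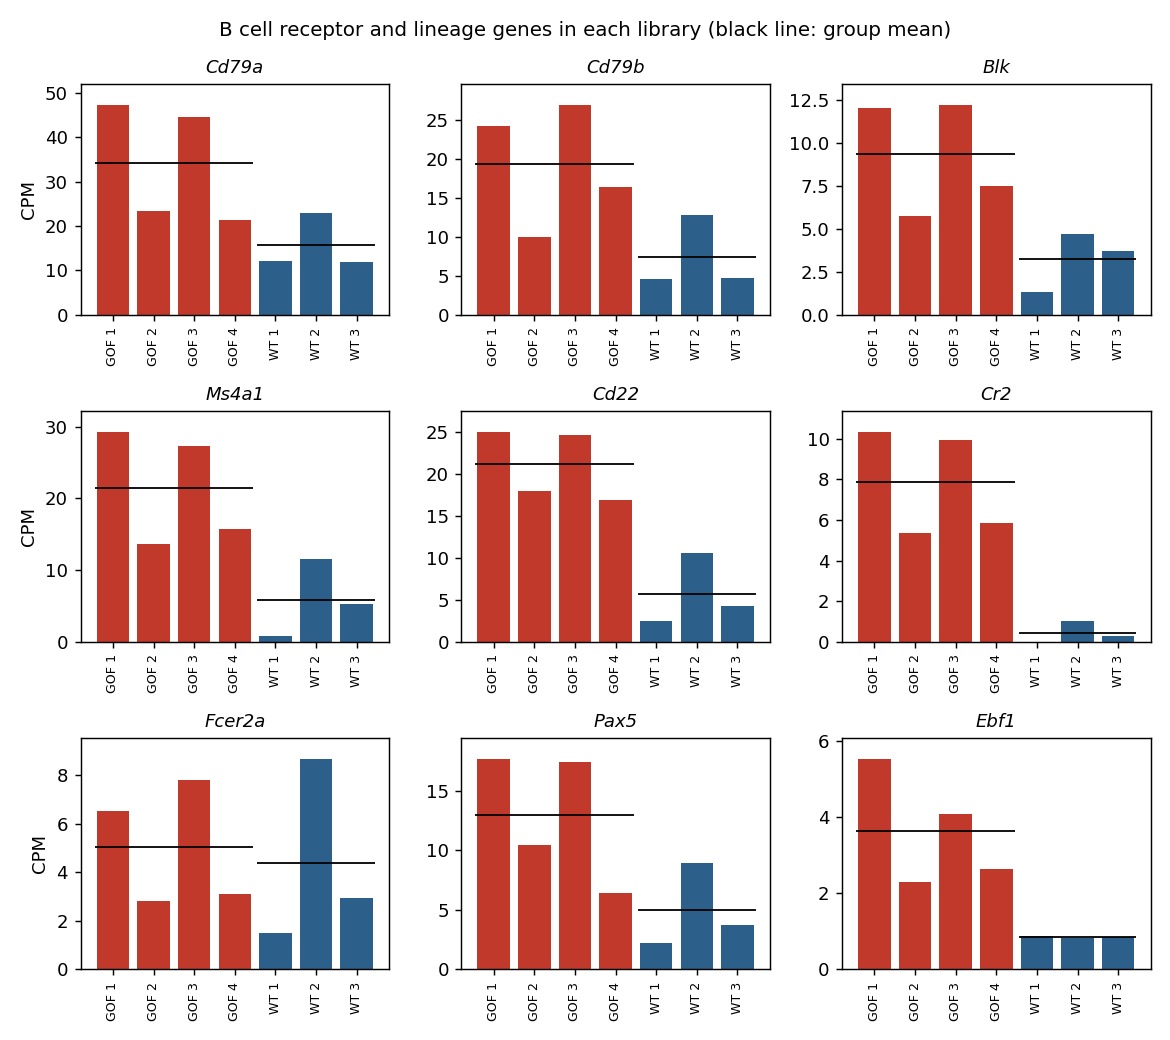
CPM of each of the 9 B cell genes (y axis, linear from 0) in the 4 GOF libraries (red) and the 3 WT libraries (blue), with black lines at the group means. GOF replicates 1 and 3 are the tallest GOF bars in every panel, and WT replicate 2 is the tallest WT bar in all but Ebf1, where the WT bars lie between 0.826 and 0.862 CPM.

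Cd79a (ENSMUSG00000003379, mm10 chromosome 7, 24897381 to 24902197) encodes the Ig-alpha signalling chain and was the most abundant of the 9 per transcript length. It was at 47.4, 23.4, 44.6 and 21.3 CPM in GOF replicates 1 to 4, against 12.2, 22.9 and 11.9 CPM in WT replicates 1 to 3. WT replicate 2 thus lay above GOF replicate 4, and the groups overlapped. The mean was 34.2 ± 13.7 CPM (SD, n = 4) in GOF and 15.7 ± 6.28 CPM (SD, n = 3) in WT, a log2 fold change of 1.12 ± 0.35 SE (edgeR adjusted p = 0.0395). That call was lost without GOF replicate 1, GOF replicate 3, WT replicate 1 or WT replicate 3 (edgeR adjusted p = 0.0931, 0.0918, 0.115 and 0.131).

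Because Ebf1 and its textbook target Cd79a are both among the 9, the sequence upstream of Cd79a is shown. It is taken from RefSeq promoters of GRCm38.p6, the assembly also called mm10, at chr7:24897247-24897380 on the plus strand. Only bases before both the RefSeq and the deposited gene start are printed. Capitals mark the letters CAAGGGAAT at 24897323 to 24897331, chosen with this promoter in view as a form of the early B factor recognition sequence.
Cd79a: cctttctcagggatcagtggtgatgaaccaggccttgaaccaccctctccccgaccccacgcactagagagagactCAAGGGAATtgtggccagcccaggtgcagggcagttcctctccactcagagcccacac
These letters, searched on both strands, occur in 0.244% of 32851 RefSeq promoter windows of 300 bases. RefSeq windows were found for 6 of the 9 genes, 9 windows in all. The more general form CCCNNGGGA occurs in 6.56% of all windows and here only in that of Cd22. The octamer ATGCAAAT and the PU.1 sequence GAGGAAGT, in 1.74% and 3.20% of all windows, were in none of the 9 windows. A match describes letters and not binding.

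Cd79b (ENSMUSG00000040592, chromosome 11, 106311341 to 106314762) encodes Ig-beta, the partner chain. It was at 24.2, 10.03, 26.9 and 16.3 CPM in GOF, against 4.60, 12.8 and 4.73 CPM in WT. The groups overlapped through GOF replicate 2 and WT replicate 2. The means were 19.4 ± 7.69 CPM (SD, n = 4) in GOF and 7.38 ± 4.70 CPM (SD, n = 3) in WT (log2 fold change 1.39 ± 0.45 SE, edgeR adjusted p = 0.0419). The call held without GOF replicate 2 or WT replicate 2 and was lost without any other single library (edgeR adjusted p = 0.0606 to 0.136), and without WT replicate 2 the log2 fold change was 2.05.

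Blk (ENSMUSG00000014453, chromosome 14, 63372837 to 63417187), the Src family kinase of B cells, was at 12.04, 5.75, 12.2 and 7.46 CPM in GOF, against 1.29, 4.68 and 3.69 CPM in WT. Every GOF library lay above every WT library, the nearest pair being GOF replicate 2 and WT replicate 2. Blk rose by a log2 fold change of 1.53 ± 0.44 SE (edgeR adjusted p = 0.0261). The call was lost without GOF replicate 1, GOF replicate 3 or WT replicate 3 (edgeR adjusted p = 0.0651, 0.0641 and 0.0624). With the replicate number as a block, over replicates 1 to 3 of each genotype, Cd79a, Cd79b and Blk did not pass either (edgeR adjusted p = 0.0584, 0.111 and 0.0684), which left 3 genes that rose. In that model 13.2% of all tested genes rose.

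Among the surface molecules, Cr2 (ENSMUSG00000026616, chromosome 1, 195136811 to 195176716) had the largest log2 fold change. It encodes complement receptor 2, a co-receptor that is also a marker of follicular dendritic cells. Cr2 was at 10.3, 5.36, 9.92 and 5.85 CPM in GOF, against 0, 1.033 and 0.279 CPM in WT. The WT values rest on 0, 15 and 4 counts, and 0 counts in WT replicate 1 allow a level of up to 0.207 CPM by that library's unscaled total (3 counts). The GOF libraries held 499 counts together. The mean was 7.87 ± 2.63 CPM (SD, n = 4) in GOF and 0.437 ± 0.534 CPM (SD, n = 3) in WT, an 18.0-fold difference (log2 fold change 4.13 ± 0.71 SE, edgeR adjusted p = 0.00260). Without WT replicate 2, which held 15 of the 19 WT counts, the log2 fold change was 5.72. Cr2 kept its call in every alternative that was run, and it was the 1 gene of the 9 that met the count filter through GOF libraries alone, so that its inclusion required a difference.

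Cd22 (ENSMUSG00000030577, chromosome 7, 30865402 to 30880342), an inhibitory lectin of B cells, was at 25.06, 17.9, 24.7 and 17.0 CPM in GOF, against 2.44, 10.6 and 4.25 CPM in WT. The groups did not overlap, and the GOF libraries varied less around their mean (coefficient of variation 20.3%) than those of any other of the 9 genes. Cd22 rose by a log2 fold change of 1.87 ± 0.43 SE (edgeR adjusted p = 0.0104), or 2.65 without WT replicate 2. Without GOF replicates 1 and 3 together it was 1.59 and did not pass (edgeR adjusted p = 0.0754).

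Ms4a1 (ENSMUSG00000024673, chromosome 19, 11249675 to 11266241) encodes CD20, the membrane protein targeted by rituximab in humans. It was at 29.3, 13.7, 27.2 and 15.7 CPM in GOF, against 0.790, 11.6 and 5.29 CPM in WT. GOF libraries all lay above WT libraries, but WT replicates 1 and 2 were 14.6-fold apart, the widest ratio within a genotype for any of the 8 genes with WT counts in every library. The log2 fold change of 1.86 ± 0.65 SE did not pass (edgeR adjusted p = 0.0558). It passed without WT replicate 1 (1.34, edgeR adjusted p = 0.0479) and without WT replicate 2 (2.81, edgeR adjusted p = 0.0159). Ms4a1 also passed with library totals only, with no filter and in limma, but not in DESeq2 (DESeq2 adjusted p = 0.0739).

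Fcer2a (ENSMUSG00000005540, chromosome 8, 3681737 to 3694174) encodes CD23, the low-affinity IgE receptor of mature B cells. It was at 6.51, 2.81, 7.82 and 3.09 CPM in GOF, against 1.51, 8.68 and 2.92 CPM in WT. The highest value of all was that of WT replicate 2, and the groups overlapped. The means of 5.06 ± 2.49 CPM (SD, n = 4) in GOF and 4.37 ± 3.80 CPM (SD, n = 3) in WT gave a log2 fold change of 0.21 ± 0.59 SE (edgeR adjusted p = 0.814). Its sign turned without GOF replicate 3 (-0.08), WT replicate 1 (-0.20) or WT replicate 3 (-0.02), and without WT replicate 2 it was 1.18 (edgeR adjusted p = 0.134).

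Of the lineage transcription factors, Ebf1 (ENSMUSG00000057098, chromosome 11, 44617317 to 45008091) was at 5.53, 2.30, 4.09 and 2.64 CPM in GOF, against 0.862, 0.826 and 0.836 CPM in WT. Each WT library held 12 Ebf1 counts, so Ebf1 did not share the high value of WT replicate 2. Ebf1 rose by a log2 fold change of 2.102 ± 0.40 SE (edgeR adjusted p = 0.00445) and kept its call without any single library. Without GOF replicates 1 and 3 together it was 1.53 (edgeR adjusted p = 0.0568).

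Pax5 (ENSMUSG00000014030, chromosome 4, 44524757 to 44710487), the factor that commits cells to the B lineage, was at 17.7, 10.4, 17.4 and 6.43 CPM in GOF, against 2.16, 8.95 and 3.69 CPM in WT. GOF replicate 4 lay below WT replicate 2. The log2 fold change of 1.39 ± 0.51 SE did not pass (edgeR adjusted p = 0.0649). It passed without GOF replicate 4 (1.62, edgeR adjusted p = 0.0399), without WT replicate 2 (2.14, edgeR adjusted p = 0.0131) and in DESeq2 (1.40, adjusted p = 0.0118).

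The 9 genes moved together between animals of 1 genotype. Their summed level was 178, 91.7, 175 and 95.8 CPM in GOF replicates 1 to 4, against 25.9, 82.1 and 37.6 CPM in WT replicates 1 to 3. GOF replicates 2 and 4 thus lay close above WT replicate 2. Among GOF mice, replicates 1 and 3 exceeded replicates 2 and 4 for 9 of the 9 genes, as they did for 25.3% of all tested genes. Among WT mice, replicate 2 was the highest for 8 of the 9 and for 38.5% of all tested genes.

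Levels were compared between genes by FPKM, which divides by transcript length. Cd79a led in both genotypes, at 24.0 ± 9.68 FPKM (SD, n = 4) in GOF and 10.4 ± 4.15 FPKM (SD, n = 3) in WT. Cd79b came next, at 9.41 ± 3.74 FPKM in GOF and 3.40 ± 2.16 FPKM in WT, below Cd79a in both genotypes without overlap. In GOF the order then ran Blk (3.87), Ms4a1 (2.62), Fcer2a (2.31), Cd22 (2.08), Pax5 (1.35), Cr2 (0.735) and Ebf1 (0.318 FPKM). From Cd79b down to Cr2 each neighbour in that order overlapped the next. In WT, Fcer2a followed Cd79b at 1.89 FPKM, and Cr2 was last at 0.0387 FPKM.

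The proportions among the 9 genes were read within each library as counts per 100 Cd79a counts, a choice made after the values were seen. Cr2 was at 21.8, 22.9, 22.3 and 27.5 per 100 in GOF replicates 1 to 4, against 0, 4.50 and 2.34 per 100 in WT replicates 1 to 3. The exact 95% counting interval of the lowest GOF library, 18.3 to 26.0, did not reach that of the highest WT library, 2.49 to 7.54. The intervals of the 4 GOF libraries overlapped one another, while their Cd79a levels differed by up to 2.23-fold.

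Fcer2a had 13.7, 12.0, 17.5 and 14.5 counts per 100 Cd79a counts in GOF, against 12.4, 37.8 and 24.6 in WT, so the groups overlapped. Ms4a1 was at 58.3 to 73.7 per 100 in GOF, against 6.47, 50.4 and 44.4 in WT. Cd22 was at 52.9 to 79.8 per 100 in GOF, against 20, 46.2 and 35.7 in WT. Ebf1 was at 9.18 to 12.4 per 100 in GOF, against 7.06, 3.60 and 7.02 in WT. For Cr2, Ms4a1, Cd22 and Ebf1 the genotypes did not overlap (exact permutation test on log2 ratios, 2-sided, p = 0.0571 each, the smallest p that 4 against 3 libraries allow). Over the 8 ratios tested these came to adjusted p = 0.114 by that exact test, so none passed. For Cd79b, Pax5, Blk and Fcer2a the exact p lay between 0.229 and 0.343.

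**Figure D2:**
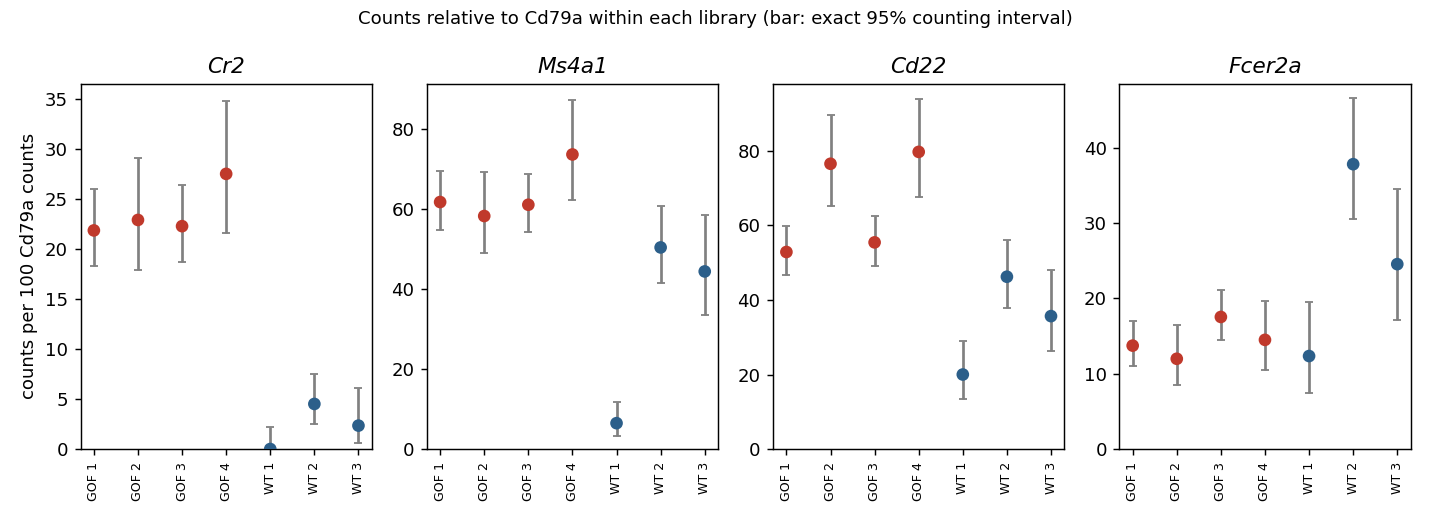
Counts of Cr2, Ms4a1, Cd22 and Fcer2a per 100 Cd79a counts (y axes, linear from 0) in the 4 GOF libraries (red) and the 3 WT libraries (blue), with exact 95% counting intervals. Cr2 lies between 21.8 and 27.5 in GOF and between 0 and 4.50 in WT, whereas the Fcer2a points of the genotypes overlap.

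Other genes of the receptor pathway were followed through lists. Of 11 pathway genes used mostly by B and myeloid cells 6 rose and 0 fell (54.5% higher, beside 16.8% of all tested genes), with a median log2 fold change of 1.40. Plcg2, the phospholipase downstream of BTK, was at 13.8 ± 4.42 CPM in GOF and 3.22 ± 1.30 CPM in WT. Lyn, a Src family kinase, was at 19.0 ± 9.07 and 2.85 ± 1.35 CPM in GOF and WT, and Btk, a Tec kinase, at 5.23 ± 2.19 and 1.16 ± 0.545 CPM (SD, n = 4 and 3). Btk held 8 counts in WT replicate 1, a level under the count filter. It entered the test with the help of GOF libraries, so its inclusion favoured a rise. Vav2, a guanine nucleotide exchange factor, rose by 0.62 on the log2 scale. Bank1, a scaffold of B cells, rose by 1.40 and lost its call without GOF replicate 1, GOF replicate 3, WT replicate 1 or WT replicate 3 (edgeR adjusted p = 0.0593 to 0.0865). The sixth was Dapp1, an adaptor named here after its value was seen. In this list 10 genes rose without WT replicate 2, where 16% of all tested genes rose. Without GOF replicates 1 and 3, 2 of its genes rose, beside 8.53% of all tested genes.

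Of 14 pathway genes that T cells also use 3 rose and 0 fell (median log2 fold change 0.22), a share of 21.4% that is near the 16.8% of all tested genes. Among them were Ptpn6, the phosphatase SHP-1, and Inpp5d, the lipid phosphatase SHIP-1, with log2 fold changes of 1.027 and 0.34 (edgeR adjusted p = 0.000135 and 0.0237). Inpp5d lost its call without GOF replicate 1, WT replicate 1 or WT replicate 3 (edgeR adjusted p = 0.0598 to 0.0973). Without WT replicate 3 and without GOF replicates 1 and 3, 1 gene of this list rose in each case. Of all tested genes 12.8% and 8.53% rose in those sets.

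Of 15 B cell surface receptors 8 rose and 0 fell (median log2 fold change 1.69), or 53.3% beside 16.8% of all tested genes. Of these receptors 5 rose without GOF replicates 1 and 3, where 8.53% of all tested genes did. Cd72, an inhibitory receptor, was at 30.3, 32.5, 34.3 and 33.2 CPM in GOF, against 5.46, 8.75 and 3.06 CPM in WT. Cxcr5, the chemokine receptor of B cells and follicular helper T cells, was at 17.4, 18.4, 16.8 and 20.5 CPM in GOF, against 2.01, 6.61 and 0.557 CPM in WT. In neither gene did GOF replicates 1 and 3 stand above replicates 2 and 4, unlike in the 9 B cell genes. Of the 15 receptors, 12 did have GOF replicates 1 and 3 above replicates 2 and 4. Cd37, a tetraspanin, rose by 1.23, Cd24a by 2.42 and Ly86, which pairs with the receptor CD180, by 3.08 on the log2 scale. The 5 had edgeR adjusted p-values from 2.47e-05 for Cd37 to 0.00989 for Cxcr5. Without WT replicate 2 the log2 fold changes of Cxcr5 and Ly86 were 3.83 and 3.80, and without GOF replicates 2 and 4 Cxcr5 did not pass (edgeR adjusted p = 0.0515). Cxcr5 and Ly86 each held 8 counts in WT replicate 3, a level under the count filter. Both entered the test with the help of GOF libraries, so their inclusion favoured a rise.

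Of 11 further transcription factors of the B lineage 4 rose and 1 fell (median log2 fold change 0.76), where 16.8% of all tested genes rose and 14.5% fell. Pou2af1, a coactivator of octamer-binding factors, was at 35.9 ± 3.42 CPM (SD, n = 4) in GOF and 6.55 ± 2.34 CPM (SD, n = 3) in WT. Irf8 and Spi1, which myeloid cells also express, rose by 2.12 and 2.14, and Spib by 1.77 on the log2 scale. Bach2, a repressor also present in naive T cells, fell to 162 ± 23.7 CPM in GOF, against 328 ± 52.5 CPM in WT (log2 fold change -1.02, edgeR adjusted p = 0.000773). Spib lost its call without GOF replicate 1, GOF replicate 3, WT replicate 1 or WT replicate 3 (edgeR adjusted p = 0.0556 to 0.0745). Without WT replicate 2 Irf8 and Spib stood at 2.93 and 2.82, and 7 of the list rose, beside 16% of all tested genes. Without GOF replicates 1 and 3, 1 rose, beside 8.53% of all tested genes.

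Immunoglobulin constant region genes rose in 3 of 6 cases and 0 fell, beside 16.8% higher among all tested genes. Ighm was at 784 ± 178 CPM (SD, n = 4) in GOF and 334 ± 21.2 CPM (SD, n = 3) in WT, and Igkc at 187 ± 89.7 and 34.1 ± 19.0 CPM. Iglc3, whose reads may be shared with near-identical lambda genes, rose by 2.21, or 2.81 without WT replicate 2, in which case 5 of the 6 rose. Of all tested genes 16% rose in that set. Ighd was at 24.7, 14.2, 27.4 and 17.6 CPM in GOF, against 4.31, 19.3 and 9.40 CPM in WT, and did not pass (edgeR adjusted p = 0.140). Ighd marks mature naive B cells and is named with its value known.

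**Figure D3:**
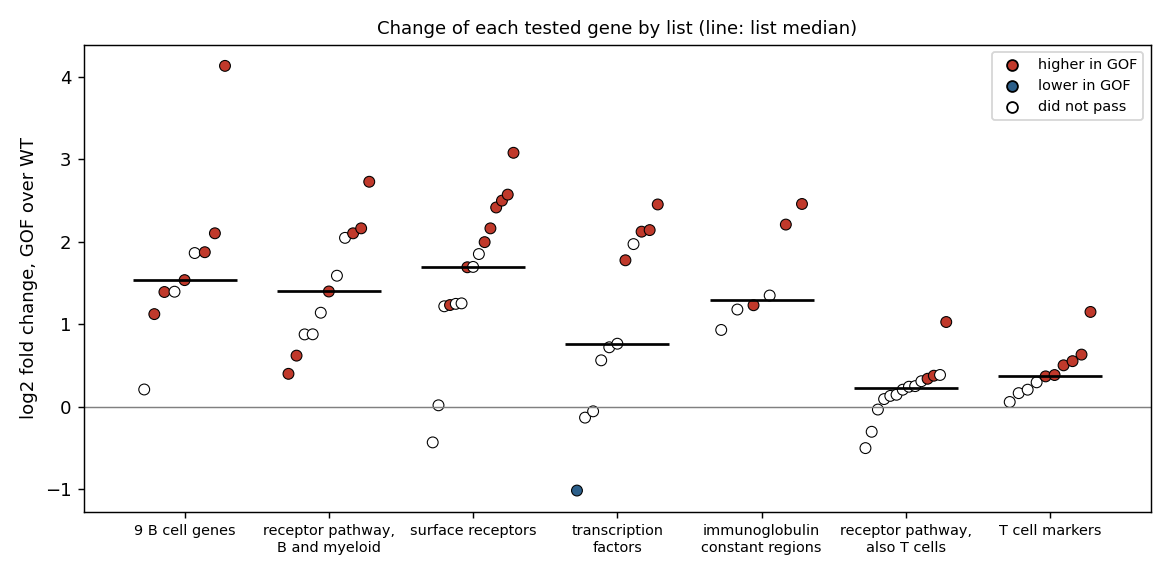
log2 fold change, GOF over WT (y axis), of every tested gene in the 9 B cell genes, 5 related lists and the T cell markers, with filled points for genes past the threshold and lines at list medians. The median is 1.53 for the 9 B cell genes, 1.40 for the pathway genes of B and myeloid cells and 0.22 for the pathway genes that T cells also use.

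Lists for B cell stages were short, and their calls stand beside 16.8% of all tested genes higher and 14.5% lower in GOF. Of 8 precursor genes 2 were tested and neither passed, and Vpreb2, Igll1 and Rag2 had 0 counts in all libraries. Of 5 germinal centre genes 2 were tested. S1pr2 fell by 0.46 on the log2 scale, a call lost without any single library but WT replicate 3 (edgeR adjusted p = 0.0551 to 0.132). Of 4 marginal zone genes 3 were tested and 2 fell, Cd9, a tetraspanin, by 0.72 and Cd1d1, which presents lipids, by 0.31 on the log2 scale. Neither is restricted to B cells, and both were at 47.6 CPM or more in every library. Without WT replicate 2, 1 precursor gene and 2 marginal zone genes rose, beside 16% of all tested genes. Cd1d1 lost its call without WT replicate 1, WT replicate 3 or GOF replicate 1, 2 or 3 (edgeR adjusted p = 0.0711 to 0.129). Of 5 plasma cell genes tested Jchain, the joining chain of secreted antibodies, and Irf4, a transcription factor of plasma cells and activated T cells, rose by 3.46 and 1.58, and Prdm1, which encodes BLIMP-1, fell by 1.18 on the log2 scale. Irf4 stood at 2.36 without WT replicate 2 and did not pass without GOF replicates 1 and 3 (edgeR adjusted p = 0.0608).

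Markers of other cells moved in the same libraries. Follicular dendritic cells, which also carry CR2, were represented by 5 genes with a summed level of 5.43 to 12.5 CPM in GOF and 3.76 to 10.3 CPM in WT. Of these 3 were tested and 0 passed, with log2 fold changes of -1.07, 1.47 and 2.03. The defining chemokine of these cells, Cxcl13, was at 0.383 to 0.716 CPM in GOF and 0 to 0.138 CPM in WT. For this and the following lists, 16.8% of all tested genes rose. Macrophage markers rose in 10 of 10 cases, and their sum was 483, 152, 509 and 164 CPM in GOF replicates 1 to 4, against 62.1, 32.8 and 31.1 CPM in WT replicates 1 to 3. Vcam1, an adhesion molecule, and C1qa, a complement component, averaged 50.2 ± 30.1 and 30.1 ± 19.5 CPM (SD, n = 4) in GOF, against 0.681 ± 0.219 and 0.325 ± 0.258 CPM (SD, n = 3) in WT. The log2 fold change of C1qa was 6.49, or 7.34 without WT replicate 2. Neutrophil markers rose in 8 of 8 cases, Csf3r and Cxcr2 among them, and their sum was 57.7 to 199 CPM in GOF and 0.482 to 7.54 CPM in WT. No neutrophil gene met the count filter in all 3 WT libraries, and of the macrophage genes only Csf1r, Adgre1 and Lyz2 did. The others entered the test with the help of GOF libraries, so their inclusion favoured a rise. GOF replicates 1 and 3 exceeded replicates 2 and 4 for 10 of 10 macrophage and 7 of 8 neutrophil genes, the exception being Cxcr2, at 2.60, 2.87, 2.41 and 2.44 CPM in GOF replicates 1 to 4. In WT the order was mixed. Macrophage genes were highest in replicate 1 in 4 cases, in replicate 2 in 5 and in replicate 3 in 1, and Lyz2 made up 52.1 of the 62.1 CPM in replicate 1. Of the neutrophil genes 6 of 8 were highest in WT replicate 1 and 0 in WT replicate 2.

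The numbers of risers in the lists below stand beside 16.8% of all tested genes. Conventional dendritic cell markers summed to 10.6 to 25.7 CPM in GOF and 2.16 to 4.34 CPM in WT, and 1 of 3 tested, Itgax, rose, by 5.42 on the log2 scale or 8.18 without WT replicate 1. Plasmacytoid dendritic cell markers summed to 23.1 to 33.3 CPM in GOF and 4.31 to 16.9 CPM in WT, and 1 of 3 tested, Runx2, rose. Of the NK and CD8 T cell markers 6 of 8 rose, led by Gzma and Nkg7, whereas the CD8 chains Cd8a and Cd8b1 did not pass, with log2 fold changes of -0.78 and -0.23 (edgeR adjusted p = 0.0972 and 0.300). The list had sums of 96.9 to 138 CPM in GOF and 56.03 to 70.2 CPM in WT. Red blood cell genes rose in 4 of 6 tested cases. These include Car1, with 0 counts in WT and at least 24.1-fold higher in GOF (floor of 3 counts per library), and Hba-a2, whose reads its near copy Hba-a1 may share. The list summed to 18.8 to 70.4 CPM in GOF and 4.18 to 18.5 CPM in WT. Itgax, Car1, Hba-a2 and the other red blood cell genes that rose likewise entered the test with the help of GOF libraries. So did Ncr1 among the NK and CD8 T cell genes that rose, named here for that reason. Hba-a2 lost its call without GOF replicate 1, GOF replicate 3, WT replicate 1 or WT replicate 3 (edgeR adjusted p = 0.0511 to 0.0718). T cell markers rose in 6 of 10 cases, led by Trac and Cd3g, and summed to 6835 to 7452 CPM in GOF and 4935 to 5188 CPM in WT. Without GOF replicates 1 and 3 the number that rose was 8 macrophage, 6 neutrophil, 4 NK and CD8, 1 red blood cell and 6 T cell genes. In that set 8.53% of all tested genes rose. The part of any of these cells in the levels of the 9 genes was not tested.

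**Figure D4:**
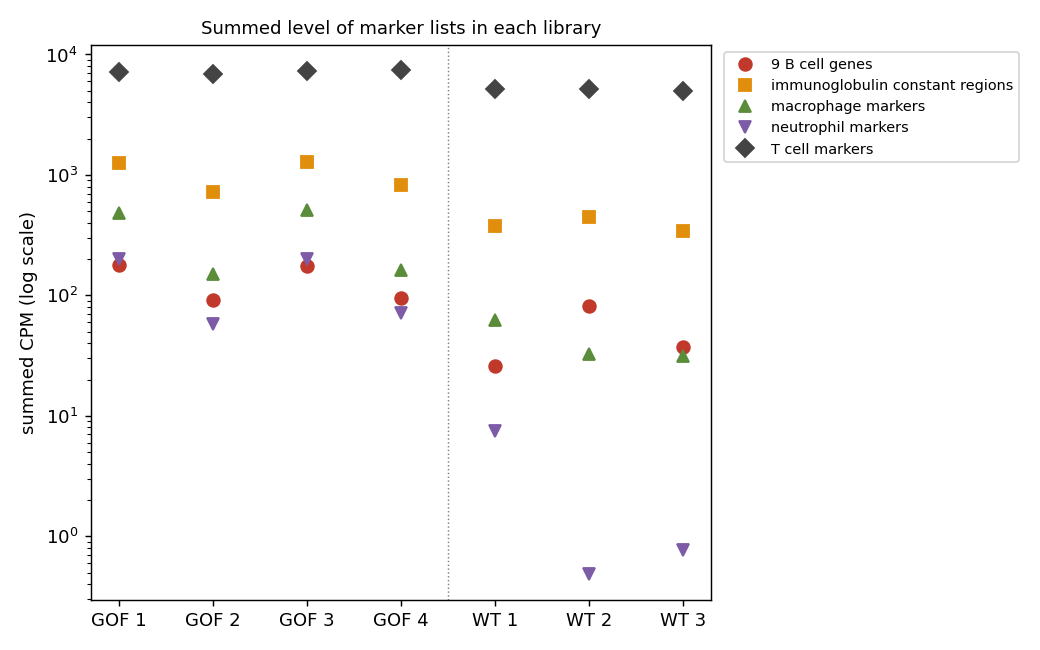
Summed CPM (y axis, log scale) of the 9 B cell genes and of 4 lists in the 4 GOF libraries (left) and the 3 WT libraries (right). The B cell genes sum to 178, 91.7, 175 and 95.8 CPM in GOF and to 25.9, 82.1 and 37.6 CPM in WT, and neutrophil markers to 57.7 to 199 CPM in GOF and 0.482 to 7.54 CPM in WT.

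The genes whose profile was most like the 9 were ranked by the root mean square difference from the median member over the 7 libraries, each gene taken as log2(CPM + 0.5) minus its own WT mean. Among 11851 other genes with a mean of at least 1 CPM the median difference was 1.32, and among the 9 it ran from 0.23 for Blk to 1.30 for Cr2. The nearest genes were Bank1 (0.18), Sema6d (0.19), Fcmr (0.21), Srpk3 (0.22), Cd302 (0.23), Ctnnbip1 (0.23), Siglecg (0.25) and Cdk14 (0.25). Of these Fcmr, the Fc receptor for IgM, and Siglecg, an inhibitory lectin of B cells, were among the surface receptors above. Fcmr was at 23.6, 11.8, 25.7 and 13.1 CPM in GOF, against 4.02, 13.9 and 5.43 CPM in WT, with the same high libraries as the 9 genes. Sema6d, Srpk3, Cd302, Ctnnbip1 and Cdk14 held 0 to 25 counts in each WT library, a level at which the added 0.5 CPM shrinks differences. Cdk14 had an edgeR log2 fold change of 3.10, beside the member median of 1.53. The likeness is a description over libraries that fall into 2 genotypes and carries no test.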

How the data were processed

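The authors deposited 1 table of raw counts and FPKM for 34745 genes. Per the submitters' processing notes, HISAT2 2.0.4, Cufflinks 2.1.1 and Cuffdiff were named with build mm10; for their roles, the counting rule, multiply mapped reads and strand use nothing is stated there. Deposited FPKM equalled count over length and library total within 0.1% for 100% of values. Antisense genes overlap Cd22, Ebf1, Ms4a1 and Pax5 in GENCODE M21 and held at most 1 count in any library.

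Counts were tested with edgeR 4.0.16 (R 4.3.3; quasi-likelihood, filterByExpr, TMM, Benjamini-Hochberg) in one model of 4 GOF and 3 WT libraries. All 9 members passed the filter of about 0.666 CPM in 3 libraries. CPM were computed from the counts with TMM-scaled totals. SE came from the fold change and F statistic. DESeq2 1.42.0 and limma 3.58.1 were alternatives. Intervals and floors cover counting error only.

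Members and lists were chosen with earlier results of these data known. Where nothing else is said, named genes are the members, Pik3cd, up to 5 genes with the smallest p past the threshold per B cell list and 2 per list of other cells, and the 8 nearest profiles. No pair of libraries within a genotype agreed within sampling noise. Some genes that this rule selects are not reported here.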

Additional observations from a re-analysis of the deposited data

Results flagged for a closer look

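Among the named genes and summed marker levels, 1 value stood far from the other GOF libraries. Nkg7, a protein of cytotoxic granules, was at 18.1 CPM in GOF replicate 2, against 25.1 to 26.5 CPM in the other 3 GOF libraries and 5.32 to 6.82 CPM in WT. It was the 1 such gap among 74 values examined, 56 genes and 18 sums. The critical value used lets chance give a gap in about 1 of 20 groups, and the cause was not tested.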

How the results depend on the processing

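Depth limits Cr2 and Ebf1 most, with 19 and 36 WT counts. With library totals, no filter, DESeq2 or limma, 7 of the 9 genes rose, against 6 with TMM or DESeq2 size factors, and 0 fell in any alternative. The added gene was Pax5 in DESeq2 and Ms4a1 with library totals, no filter or limma. Of all tested genes 11.8% rose with no filter and 21.1% in limma on log2(FPKM + 0.1), the lowest and highest shares among these settings. The median log2 fold change of the members was 1.02 in limma on log2(FPKM + 1), a scale that compresses low values. Deviations from the group means were correlated between WT and GOF libraries over all tested genes. Libraries of the same replicate number gave 0.026, 0.147 and -0.041, and the other pairs ran from -0.181 to 0.129. These few values cannot decide whether the libraries were paired by number. With the replicate block 3 members rose. Leaving out single libraries gave 3 to 8 members higher and medians of 1.16 to 2.09, while 12.8% to 16% of all tested genes rose. Without GOF replicates 1 and 3, an alternative added after seeing the data, 1 member rose (median 1.02), 1074 of all genes were higher and 1050 lower, and Fcer2a stood at -0.57. With single libraries left out Fcer2a ran from -0.20 to 1.18, and was -0.08 and -0.02 without GOF replicate 3 and WT replicate 3. The causes were not tested.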
